A study of Mus musculus with 14 samples.

Results

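The IL-1, IL-6 and IL-33 axis was followed through 10 genes in liver sinusoidal endothelial cells (LSECs), the fenestrated endothelium of the liver sinusoids, before and after an acute liver injury. The 10 genes were chosen by name: Il1b, Il1rn, Il1r1, Il33, Il6, Il6ra, Il6st, Lifr, Osmr and Socs3. They are 10 of the 54524 Ensembl genes in the deposited count table, and all 10 were among the 26626 genes that passed the filter on low counts. Bulk RNA sequencing was available for LSECs of male Balb/c mice, labelled as 10 to 12 weeks old. The groups were 4 healthy mice that received no injection and mice taken 1 day (n = 2), 3 days (n = 4) or 7 days (n = 4) after a single intraperitoneal injection of CCl4 at 0.5 µL per g of body weight in mineral oil. CCl4, carbon tetrachloride, is a solvent that injures hepatocytes around the central veins. As the healthy mice received no oil, an effect of the oil or the injection cannot be told apart from that of CCl4. Per the methods, the day 1 group has fewer mice because some RNA was of low quality, and each library comes from live CD32+ F4/80- CD45- cells that also lacked a UV signal.

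IL-1 beta, encoded by Il1b, signals through the receptor encoded by Il1r1, and the secreted antagonist encoded by Il1rn occupies the same receptor without starting a signal. IL-33 is a nuclear cytokine of the IL-1 family that is released from damaged endothelial and epithelial cells. IL-6 binds its own receptor chain, encoded by Il6ra, and then the shared chain gp130, encoded by Il6st, while the chains encoded by Lifr and Osmr pair with gp130 for leukemia inhibitory factor and oncostatin M. These receptors activate STAT3, which induces Socs3, an inhibitor of gp130 signalling. In the liver this pathway is best known for the acute-phase response and for regeneration.

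The libraries held between 46401496 and 103912264 counts on genes, and single members were covered by 186 to 228139 counts per library. Levels are given as CPM, counts per 1000000 counts of the library after TMM scaling, and comparisons between genes as TMM-scaled RPKM, which also divides by gene length. Counting error was therefore small beside the spread between mice, and all errors below are between mice. Markers of LSECs, among them Stab2, Lyve1 and Fcgr2b, were detected in all groups, and 10 of them summed to between 16920 and 20990 CPM in healthy LSECs and to between 9838 and 15550 CPM after CCl4. Of these 10 LSEC markers, 1 was called higher and 1 lower at day 1 and again at day 3, and 0 were called at day 7. Markers of other liver cells were present as well. The sum of 12 monocyte and neutrophil markers was 510.0 to 1377 CPM in healthy libraries, 4473 and 8767 CPM at day 1, 1355 to 12520 CPM at day 3 and 4152 to 9592 CPM at day 7. Of the 12 markers, 6 rose at day 1, 4 at day 3 and 1 at day 7, where 2.41%, 4.56% and 2.19% of all genes were called higher. The median log2 fold change of the 12 was 4.5, 3.1 and 1.5 on these days. The median sum was 6620 CPM at day 1 and 8196 CPM at day 7, so like sums on these days differed in their make-up. The day 3 libraries split on the sum of the 12, at 12520 and 7759 CPM in replicates 1 and 2 against 1458 and 1355 CPM in replicates 3 and 4. The number of genes with a count split the same way, at 34678 and 34768 against 28203 and 22986. In bulk RNA, a change in the number of cells of a type and a change in the RNA of a gene per cell cannot be told apart. Markers of hepatic stellate cells, the collagen-producing cells beside the sinusoid, had the most calls: 9 of 12 rose at day 3 and 11 of 12 at day 7, and 0 were called at day 1. Their sum was 149.8 to 276 CPM in healthy libraries, 106 and 130.1 CPM at day 1, 649.7 to 1971 CPM at day 3 and 358.5 to 5626 CPM at day 7. The sum of 10 hepatocyte markers was 179.8 to 353 CPM in healthy replicates 1 to 3 and 7912 CPM in healthy replicate 4. It was 32.9 and 136 CPM at day 1, 822 to 2915 CPM at day 3 and 781.5 to 6293 CPM at day 7, and edgeR called 0 of the 10 markers on these days. The sum of 10 markers of Kupffer cells, the liver macrophages, was 305.4 to 1974 CPM in healthy libraries, the lowest in replicate 1. It was 1030 and 2288 CPM at day 1, 582.8 to 1523 CPM at day 3 and 647.7 to 1784 CPM at day 7, with 0 of the 10 called. The part of all these cells in the levels and differences below was not tested.

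Healthy LSECs carried the feedback inhibitor and the shared receptor chains at far higher levels than the IL-6 receptor itself. Per length, Socs3 was highest at 526.5 ± 76.0 RPKM (SD, n = 4), which ranked 62nd among 21995 protein-coding genes. Il1b followed at 151.6 ± 71.2 RPKM, and then Lifr at 48.5 ± 7.6 RPKM and Il6st at 45.1 ± 5.69 RPKM. Lifr and Il6st could not be ordered, since their ranges over the 4 mice overlapped, whereas Socs3, Il1b and this pair did not overlap. Il1r1 was at 11.7 ± 1.79 RPKM and Osmr at 8.52 ± 0.783 RPKM, with ranges that overlapped slightly. Il33 at 4.99 ± 1.56 RPKM and Il6 at 3.69 ± 0.863 RPKM overlapped too. Il6ra at 0.799 ± 0.473 RPKM and Il1rn at 0.500 ± 0.239 RPKM were lowest and overlapped. The order at the top changed after CCl4. At day 1 the mean of Il1b was 641 ± 193 RPKM and that of Socs3 250.4 ± 14.4 RPKM (n = 2), and the Il1b level was above that of Socs3 in both mice. At day 7 the means were 256.6 ± 25.7 RPKM for Il1b and 259 ± 65.6 RPKM for Socs3 (n = 4), so that they no longer differed beyond their spread. Lifr, Il33 and Il6st are among the genes that the study lists for LSECs of healthy liver, and Lifr is one of those retained for its signature. As that choice drew on these samples, the levels of Lifr are no independent evidence for it.

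**Figure D1:**
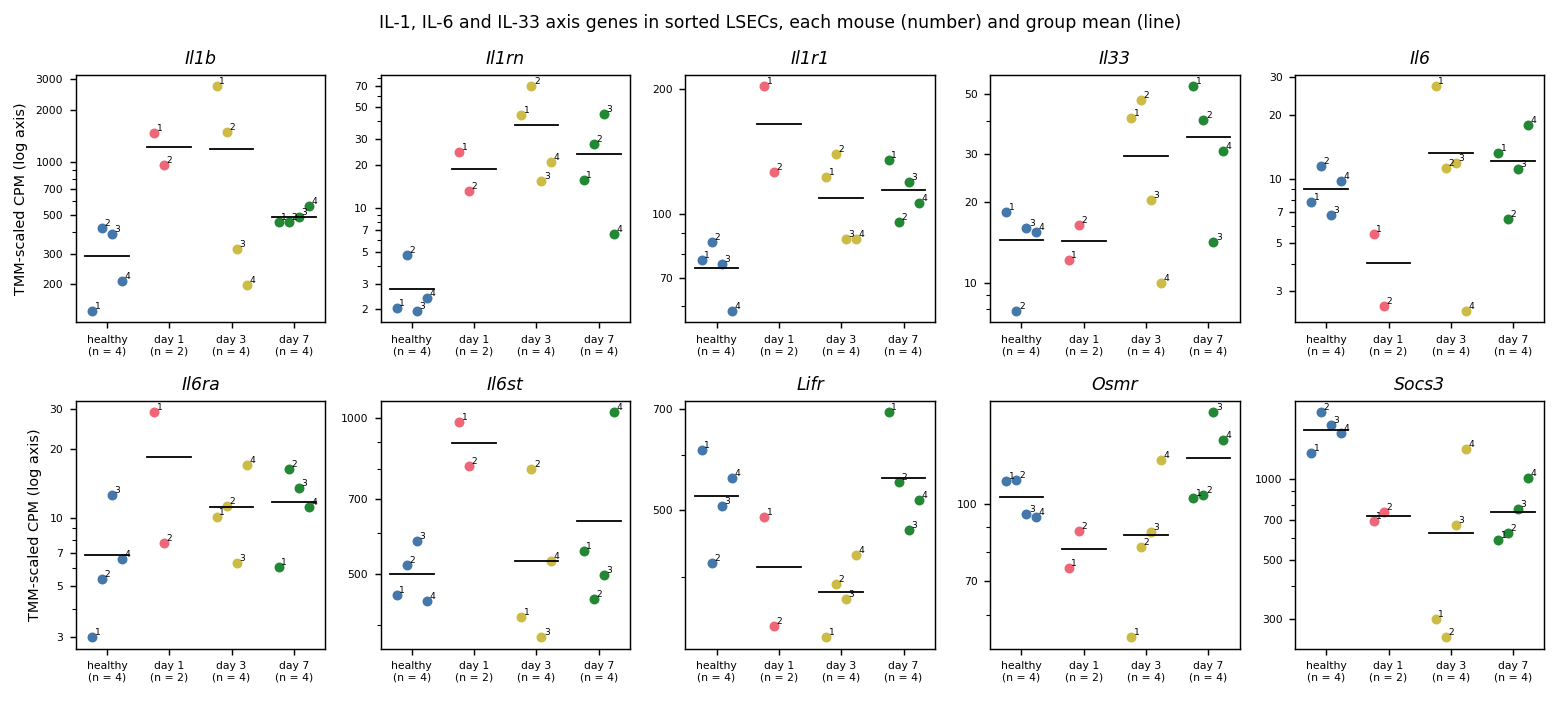
TMM-scaled CPM (log axis) of each of the 10 genes in each mouse, with the replicate number beside each point and the group mean as a line. Il1rn lies above the healthy range in all 10 mice given CCl4, and Il1b and Socs3 at day 3 are split between replicates 1 and 2 and replicates 3 and 4.

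To ask which parts of the axis change during injury and recovery, days 1, 3 and 7 were each set against healthy LSECs, and successive days against each other. The threshold for a call was an adjusted p of 0.05 (edgeR, Benjamini-Hochberg over all 26626 genes). The 3 comparisons with healthy LSECs share the same 4 healthy mice. At day 1, 2 of the 10 members rose (Il1rn and Il1r1), and none was called lower, where 4.04% of all genes tested were called, 2.41% higher and 1.63% lower. At day 3, 1 of 10 rose (Il1rn), where 7.16% of all genes were called, 4.56% higher and 2.6% lower. At day 7, 1 of 10 rose (again Il1rn), where 3.27% of all genes were called, 2.19% higher and 1.08% lower. The share of higher genes among all calls depended on the scaling, at 63.6% with TMM and 75.1% with library size only (43.6% without a count filter) at day 3, and at 67.0% and 86.0% at day 7. The median log2 fold change of the members was 0.42 at day 1, 0.56 at day 3 and 0.53 at day 7, beside -0.03, 0.18 and 0.02 over all genes tested. An unadjusted p under 0.05 was reached by 5 members at day 1, 6 at day 3 and 4 at day 7, where 17.8%, 22.1% and 21.1% of all genes reached it.

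Groups without overlap in CPM were read the same way. At day 1, 4 members were higher in both mice than in every healthy mouse and 3 were lower, where this held for 37.9% of all genes, 20% higher and 17.9% lower. At day 3, 2 members were higher without overlap and none lower, where this held for 14.4% of all genes, 7.53% higher and 6.85% lower. At day 7, 3 members were higher and 1 was lower, where this held for 20.8% of all genes, 8.72% higher and 12.1% lower. With only 2 mice at day 1, separation of the groups was thus common among all genes.

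The IL-1 receptor antagonist gene was the member called at all 3 days. Il1rn (ENSMUSG00000026981, chr2:24336853-24351494, plus strand of GRCm38) was at 2.02, 4.73, 1.93 and 2.39 CPM in the healthy mice. It was at 24.55 and 13.1 CPM at day 1, at 44.0, 70.7, 15.4 and 20.9 CPM at day 3, and at 15.65, 27.9, 45.1 and 6.59 CPM at day 7. All 10 mice given CCl4 were thus above all 4 healthy mice, and the levels spread widely within each day. The log2 fold change was 2.77 ± 0.68 (SE) at day 1 (adjusted p = 0.0356), 3.77 ± 0.64 at day 3 (adjusted p = 0.00497) and 3.10 ± 0.62 at day 7 (adjusted p = 0.0188). The call at day 3 held in all 8 fits that left out 1 mouse, with an adjusted p of 0.00528 to 0.0219. The call at day 1 held only without healthy replicate 2 (adjusted p = 0.0366), and the adjusted p was 0.0902, 0.0909 and 0.0774 without healthy replicates 1, 3 and 4 and 0.406 and 0.0589 without day 1 replicates 1 and 2. At day 7 it was lost without healthy replicate 1, healthy replicate 3 or day 7 replicate 2 (adjusted p = 0.0732, 0.0700 and 0.0549).

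Il1rn was set beside the markers of other cells in the same libraries. Over the 14 libraries, which fall into 4 groups, log2 CPM of Il1rn went with the monocyte and neutrophil sum (r = 0.84, rho = 0.85) and against the LSEC sum (r = -0.85, rho = -0.89). In day 3 replicates 3 and 4, where those markers summed to 1458 and 1355 CPM, close to the healthy maximum of 1377 CPM, Il1rn was at 15.4 and 20.9 CPM, above the highest healthy level of 4.73 CPM. In replicates 1 and 2, with marker sums of 12520 and 7759 CPM, it was at 44.0 and 70.7 CPM. At day 7 the lowest Il1rn level, 6.59 CPM in replicate 4, was in the library with the lowest marker sum of that day, 4152 CPM. Across all 14 samples, the protein-coding genes most like Il1rn in log2 CPM were Lgals3 (Pearson r = 0.935, Spearman rho = 0.960), Abca1 (r = 0.934, rho = 0.864) and Aprt (r = 0.924, rho = 0.859), of 16857 compared. Lgals3 encodes galectin-3, a lectin abundant in macrophages, and Abca1 a cholesterol exporter.

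**Figure D2:**
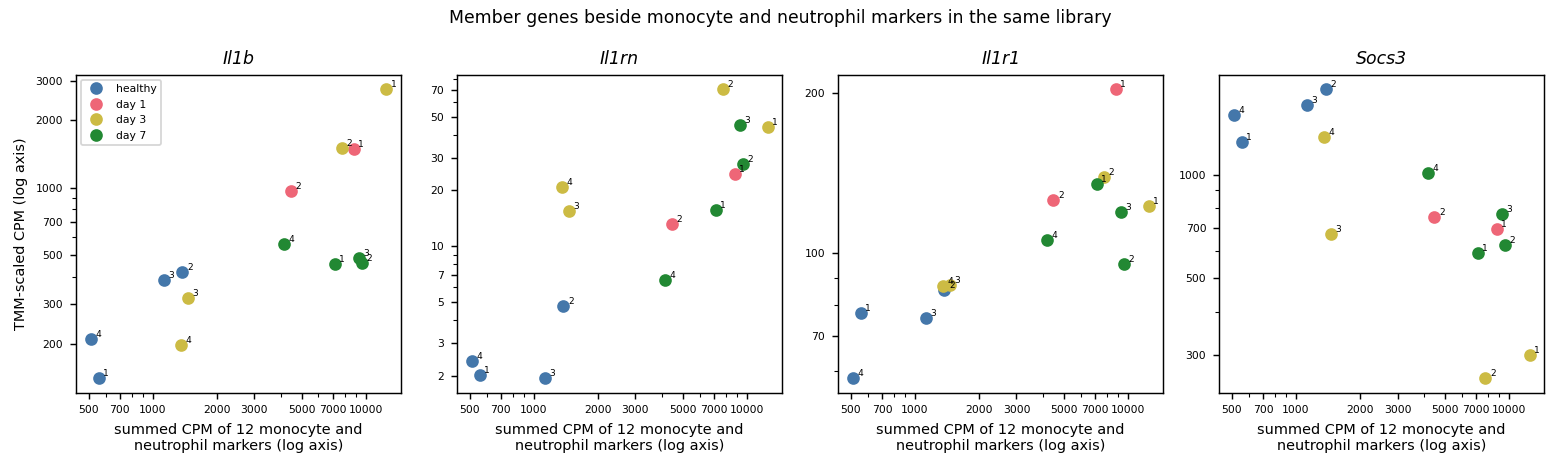
TMM-scaled CPM of Il1b, Il1rn, Il1r1 and Socs3 against the summed CPM of 12 monocyte and neutrophil markers in the same library (both axes logarithmic, 1 point per mouse, replicate number beside it). Day 3 replicates 3 and 4 lie near the healthy marker range of 510.0 to 1377 CPM, with Il1rn at 15.4 and 20.9 CPM and with Il1b at 319.9 and 197 CPM, inside the healthy range of Il1b.

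The second called member was the signalling receptor. Il1r1 (ENSMUSG00000026072, chr1:40225080-40317257, plus strand) was at 77.2, 85.4, 75.7 and 58.25 CPM in healthy LSECs and at 203 and 125.8 CPM at day 1. It was at 123, 139, 87.1 and 86.6 CPM at day 3 and at 135, 95.4, 119 and 106 CPM at day 7. Every mouse given CCl4 was above every healthy mouse, although day 3 replicates 3 and 4 exceeded the highest healthy level by little. Il1r1 rose by a log2 fold change of 1.15 ± 0.25 at day 1 (adjusted p = 0.0196). The log2 fold change was 0.55 ± 0.21 at day 3 (adjusted p = 0.139) and 0.62 ± 0.21 at day 7 (adjusted p = 0.121), neither called. The day 1 call rested on replicate 1, whose monocyte and neutrophil marker sum was 8767 CPM: without it the log2 fold change was 0.73 (adjusted p = 0.484), and it held in the other 5 fits that left out 1 mouse. Over the 14 libraries Il1r1 and the monocyte and neutrophil sum had r = 0.83 and rho = 0.78. The genes most like Il1r1 were Lyst (r = 0.950, rho = 0.916), Akap13 (r = 0.929, rho = 0.833) and Csf2rb (r = 0.928, rho = 0.965), the last encoding the beta chain of myeloid cytokine receptors.

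The promoter sequences of the 2 called members are shown. Both were called higher at day 1, and only Il1rn was called at days 3 and 7. The windows are the 250 bases before a RefSeq start in GRCm38.p6, read 5′ to 3′ on the gene's strand, with matches to a searched motif in capitals. Il1rn has several RefSeq starts, of which the most upstream and the most downstream are given, at chr2:24336610-24336859 and chr2:24345121-24345370, and the upstream start of Il1r1 has its window at chr1:40224830-40225079.
Il1rn upstream start: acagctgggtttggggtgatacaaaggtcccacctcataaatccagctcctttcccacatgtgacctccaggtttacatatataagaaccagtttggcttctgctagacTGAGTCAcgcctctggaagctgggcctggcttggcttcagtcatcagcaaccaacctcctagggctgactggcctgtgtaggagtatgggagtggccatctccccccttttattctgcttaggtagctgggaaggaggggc
Il1rn downstream start: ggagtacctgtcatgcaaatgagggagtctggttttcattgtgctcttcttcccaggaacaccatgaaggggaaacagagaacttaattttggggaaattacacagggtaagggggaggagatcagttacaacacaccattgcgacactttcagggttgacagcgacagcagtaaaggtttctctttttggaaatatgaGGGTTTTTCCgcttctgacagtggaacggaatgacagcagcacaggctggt
Il1r1 upstream start: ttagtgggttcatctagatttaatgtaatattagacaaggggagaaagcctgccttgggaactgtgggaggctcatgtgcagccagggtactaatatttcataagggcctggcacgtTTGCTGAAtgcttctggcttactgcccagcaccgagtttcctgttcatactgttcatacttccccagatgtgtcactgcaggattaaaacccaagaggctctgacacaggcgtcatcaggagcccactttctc
The motifs searched on both strands were TTCNNNGAA for STAT factors, an NF-kB-like pattern, TTGCNNAA for C/EBP and TGANTCA for AP-1. Of 32841 RefSeq windows of the same length, 7.02%, 1.41%, 9.57% and 6.75% hold them, in this order. The NF-kB-like pattern differs from the accepted NF-kB consensus, so a match to it need not match that consensus. The upstream Il1rn window held an AP-1 match 141 to 135 bases before the start. The downstream window held a match to the NF-kB-like pattern 51 to 42 bases before its start. The window between them, not shown, held none of the 4. The upstream Il1r1 window held a C/EBP match 133 to 126 bases before the start, and the window of its downstream start (chr1:40266336-40266585), not shown, held none of the 4. Among the other members, the window of Il6 held matches to the NF-kB-like pattern, C/EBP and AP-1, and a downstream window of Il33 held a C/EBP match. The only STAT match among the 15 windows of the 10 members was that of Socs3. These are matches of letters in a window and were not measured as binding sites.

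Il1b, the ligand, was abundant in every library but did not pass the test. Il1b (ENSMUSG00000027398, chr2:129364570-129371139, minus strand) was at 140.3, 421, 386 and 209 CPM in healthy LSECs and at 1483 and 963 CPM at day 1. At day 3 it was at 2758, 1497, 319.9 and 197 CPM, and at day 7 at 456, 458, 484 and 560.2 CPM. Days 1 and 7 did not overlap with healthy LSECs, while at day 3 replicates 1 and 2 were above every healthy mouse and replicates 3 and 4 within their range. The log2 fold change was 2.08 ± 0.75 at day 1 (adjusted p = 0.149), 2.05 ± 0.66 at day 3 (adjusted p = 0.0794) and 0.76 ± 0.64 at day 7 (adjusted p = 0.527). Without day 3 replicate 4, the day 3 difference passed (adjusted p = 0.0199). The libraries with high Il1b were those with high monocyte and neutrophil markers at days 1 and 3. At day 7, marker sums of up to 9592 CPM went with 456 to 560.2 CPM of Il1b. The day 7 sums differed in make-up, as the 12 markers had a median log2 fold change of 1.5 at day 7 and 4.5 at day 1. Over the 14 libraries Il1b and the monocyte and neutrophil sum had r = 0.80 and rho = 0.82. Il1b also went with the sums of Kupffer cell (r = 0.59, rho = 0.55), T and NK cell (r = 0.62, rho = 0.60) and platelet and megakaryocyte markers (r = 0.72, rho = 0.48). The lowest healthy level of Il1b, 140.3 CPM in replicate 1, was in the healthy library with the lowest Kupffer cell sum, 305.4 CPM. The part of these cells in the Il1b values was not tested. The genes most like Il1b were Gm5150 (r = 0.981, rho = 0.965), Cd53 (r = 0.968, rho = 0.952), a leukocyte tetraspanin, and Stfa2l1 (r = 0.959, rho = 0.885), a stefin expressed in neutrophils. The antisense gene Il1bos overlaps exons of Il1b and had 9 to 239 counts where Il1b had 14066 to 228139. Whether the counting used strand is not given in the sources used here.

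The antagonist and its ligand can be set against each other within a library, where the scaling cancels. Per length, healthy LSECs had 0.173 to 0.495 reads of Il1rn for every 100 of Il1b. The ratio was 0.571 and 0.469 at day 1, at 0.549, 1.63, 1.66 and 3.65 at day 3, and at 1.18, 2.10, 3.21 and 0.405 at day 7. All 4 day 3 libraries were above the healthy range, and the highest ratio of that day was in replicate 4, whose Il1b level was the lowest. Day 1 replicate 2 and day 7 replicate 4 were within the healthy range.

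**Figure D3:**
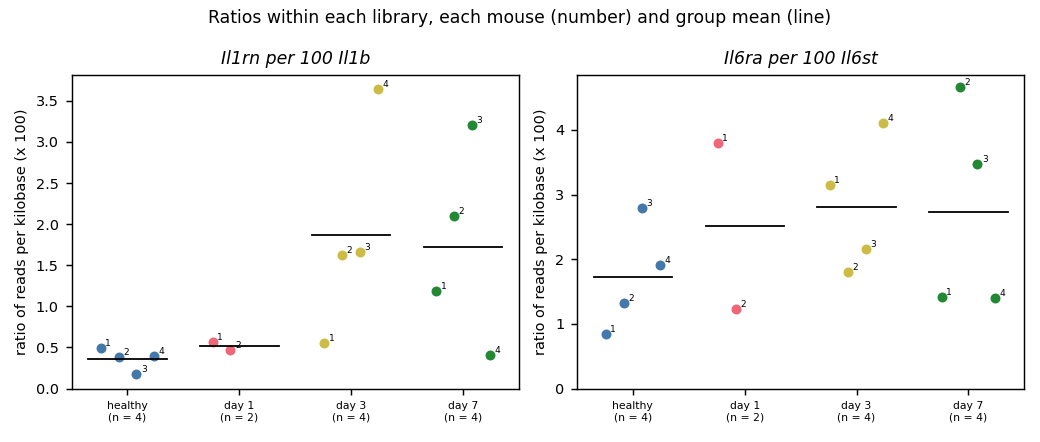
Il1rn per 100 Il1b (left) and Il6ra per 100 Il6st (right), as ratios of reads per kilobase within each library (1 point per mouse, replicate number beside it, group mean as a line). The first ratio was 0.173 to 0.495 in healthy LSECs and 0.549 to 3.65 at day 3, and the ranges of the second overlap between all groups.

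Il33 was higher in most mice at days 3 and 7, but not in all. Il33 (ENSMUSG00000024810, chr19:29925114-29960718, plus strand) was at 18.3, 7.88, 16.0 and 15.5 CPM in healthy LSECs and at 12.2 and 16.4 CPM at day 1. It was at 40.8, 47.5, 20.4 and 10.0 CPM at day 3 and at 53.8, 40.3, 14.2 and 30.8 CPM at day 7. On each of these days 3 of 4 mice were above every healthy mouse, and 1 was within the healthy range. Il33 had a log2 fold change of -0.01 ± 0.57 at day 1 (adjusted p = 1), 1.04 ± 0.47 at day 3 (adjusted p = 0.214) and 1.27 ± 0.47 at day 7 (adjusted p = 0.149). Markers of hepatic stellate cells were higher on the same days, and over the 14 libraries Il33 went with their sum (r = 0.49, rho = 0.43). It also went with the sums of mesothelial (r = 0.54, rho = 0.62), B cell (r = 0.49, rho = 0.59), hepatocyte (r = 0.52, rho = 0.52) and monocyte and neutrophil markers (r = 0.54, rho = 0.41). Il33 went against the sum of general endothelial markers (r = -0.73, rho = -0.65). In single libraries the order differed: day 3 replicate 4, with the least Il33 of that day, had a stellate sum of 1971 CPM, and day 7 replicate 1, with the most, had 358.5 CPM. The part of these cells in the Il33 values was not tested. The receptor chain for IL-33 encoded by Il1rl1, named here after its values were seen, was at 0.240 to 1.43 CPM in healthy LSECs, 0.561 and 1.09 CPM at day 1, 0 to 1.16 CPM at day 3 and 0.613 to 1.43 CPM at day 7. It was not called on any day, and the library at 0 allows up to 3 counts. Most like Il33 were Rasgrf1 (r = 0.901, rho = 0.904) and Fam90a1b (r = 0.899, rho = 0.843).

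Of the IL-6 ligand and its receptor chain, neither was called at any day. Il6 (ENSMUSG00000025746, chr5:30013114-30019981, plus strand) was at 7.80, 11.5, 6.77 and 9.83 CPM in healthy LSECs and at 5.51 and 2.54 CPM at day 1. It was at 27.3, 11.25, 11.9 and 2.41 CPM at day 3 and at 13.2, 6.50, 11.1 and 18.0 CPM at day 7. Both day 1 mice were below all healthy mice, and the day 3 mice lay on both sides of them, with the highest and the lowest level of all 14 libraries. Il6 had a log2 fold change of -1.15 ± 0.69 at day 1 (adjusted p = 0.440), 0.56 ± 0.54 at day 3 (adjusted p = 0.598) and 0.44 ± 0.54 at day 7 (adjusted p = 0.684). Over the 14 libraries Il6 went with the sum of 6 B cell markers (r = 0.76, rho = 0.87). That sum was 28.3 to 149.9 CPM in healthy libraries, 41.0 and 53.1 CPM at day 1, 24.7 to 193.4 CPM at day 3 and 61.4 to 175.2 CPM at day 7. The part of these cells in the Il6 values was not tested. Most like Il6 across the 14 samples were Rprml (r = 0.902, rho = 0.8286), Klra7 (r = 0.886, rho = 0.708) and Foxd1 (r = 0.868, rho = 0.744).

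Il6ra (ENSMUSG00000027947, chr3:89864059-89913196, minus strand) was at 2.99, 5.39, 12.6 and 6.61 CPM in healthy LSECs and at 29.1 and 7.75 CPM at day 1. It was at 10.1, 11.2, 6.345 and 17.0 CPM at day 3 and at 6.10, 16.3, 13.5 and 11.2 CPM at day 7. The groups overlapped on all 3 days, and the high day 1 value came from replicate 1, whose removal took the log2 fold change from 1.41 ± 0.58 to 0.13. The log2 fold change was 0.70 ± 0.49 at day 3 and 0.77 ± 0.49 at day 7, and the adjusted p was 0.212, 0.454 and 0.388 from day 1 to day 7. Against gp130, Il6ra stayed low in every library, at 0.842 to 4.67 reads per length for every 100 of Il6st. The antisense gene Gm42809, which overlaps exons of Il6ra, had 15 to 90 counts where Il6ra had 300 to 2430. The genes most like Il6ra were Galnt6 (r = 0.879, rho = 0.811), Pgd (r = 0.873, rho = 0.833) and Hcls1 (r = 0.865, rho = 0.8286), the last a signalling protein of blood cells.

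None of the signal-transducing chains Il6st, Lifr and Osmr was called on any day in the main fit. Il6st (ENSMUSG00000021756, chr13:112464070-112510086, plus strand) was at 456.5, 521, 580.2 and 444 CPM in healthy LSECs and at 982 and 809 CPM at day 1. It was at 413, 797, 378 and 531 CPM at day 3 and at 555.5, 449, 499 and 1028 CPM at day 7. Both day 1 mice were above every healthy mouse, as were day 3 replicate 2 and day 7 replicate 4. Il6st had a log2 fold change of 0.84 ± 0.34 at day 1 (adjusted p = 0.208), 0.08 ± 0.29 at day 3 (adjusted p = 0.900) and 0.34 ± 0.29 at day 7 (adjusted p = 0.529). Il6st was most closely matched by Aire (r = 0.835, rho = 0.849), Gm26657 (r = 0.803, rho = 0.678) and Sh3gl3 (r = 0.780, rho = 0.713).

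Lifr (ENSMUSG00000054263, chr15:7090614-7197489, plus strand) was at 611, 418, 506 and 556.5 CPM in healthy LSECs and at 488 and 339 CPM at day 1. It was at 327, 390.3, 371.5 and 430.0 CPM at day 3 and at 692, 548, 467 and 517 CPM at day 7. Day 3 replicates 1 to 3 were below all healthy mice, and replicate 4 was above the lowest of them. Lifr had a log2 fold change of -0.34 ± 0.23 at day 1 (adjusted p = 0.507), -0.46 ± 0.19 at day 3 (adjusted p = 0.161) and 0.09 ± 0.19 at day 7 (adjusted p = 0.828). Lifr was most closely matched by Kctd18 (r = 0.831, rho = 0.749), Pnpla8 (r = 0.808, rho = 0.8286) and Prr14l (r = 0.806, rho = 0.833).

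Osmr (ENSMUSG00000022146, chr15:6813577-6874969, minus strand) was at 111, 112, 95.7 and 94.3 CPM in healthy LSECs and at 74.3 and 88.3 CPM at day 1. It was at 54.05, 81.9, 88.0 and 122 CPM at day 3 and at 103, 104, 153 and 134 CPM at day 7. Both day 1 mice were below all healthy mice, and the day 3 mice covered the healthy range on both sides. Osmr had a log2 fold change of -0.34 ± 0.27 at day 1 (adjusted p = 0.593), -0.25 ± 0.22 at day 3 (adjusted p = 0.556) and 0.26 ± 0.22 at day 7 (adjusted p = 0.535). The genes most like Osmr were Ncoa2 (r = 0.977, rho = 0.947), Efnb2 (r = 0.937, rho = 0.899), which encodes the endothelial ligand ephrin-B2, and Rreb1 (r = 0.929, rho = 0.868).

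**Figure D4:**
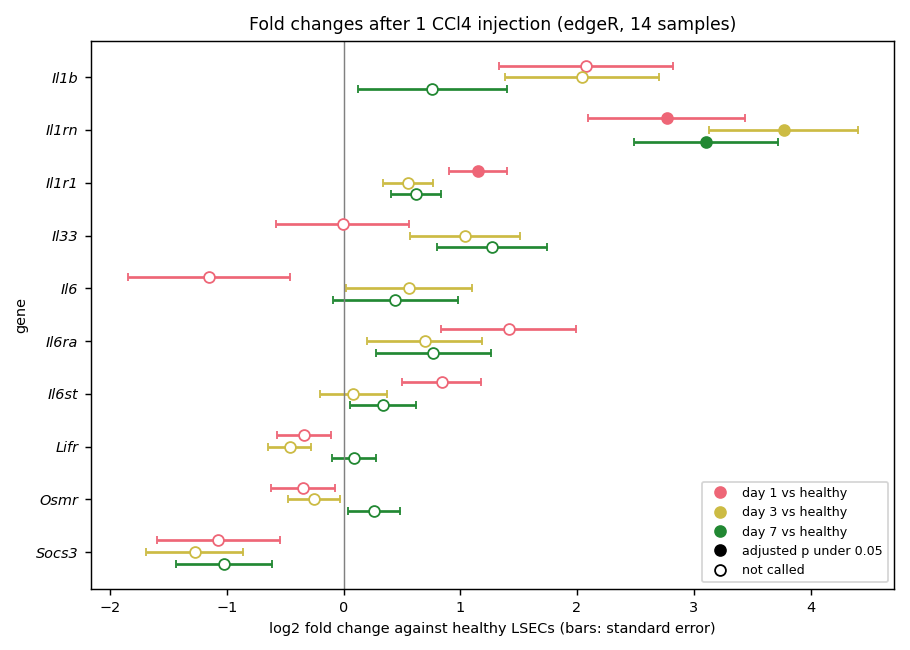
Log2 fold change of each of the 10 genes against healthy LSECs at day 1, day 3 and day 7 (points, with bars for the standard error), from edgeR on all 14 samples. Filled points mark an adjusted p under 0.05, reached by Il1rn at all 3 days and by Il1r1 at day 1, and the fold changes of Socs3 lie between -1.27 and -1.02 with open points.

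Socs3, the feedback inhibitor, was lower in nearly all mice given CCl4 without passing the test. Socs3 (ENSMUSG00000053113, chr11:117966079-117970047, minus strand) was at 1243, 1770, 1589 and 1485 CPM in healthy LSECs and at 695 and 753 CPM at day 1. At day 3 it was at 300.2, 257, 673 and 1288 CPM, and at day 7 at 592, 627, 770.5 and 1009 CPM. Of the 10 mice given CCl4, 9 were below all healthy mice, and the exception was day 3 replicate 4. Socs3 had a log2 fold change of -1.07 ± 0.53 at day 1 (adjusted p = 0.313), -1.27 ± 0.41 at day 3 (adjusted p = 0.0833) and -1.02 ± 0.41 at day 7 (adjusted p = 0.179). Without day 3 replicate 4 the day 3 difference passed, with a log2 fold change of -1.96 (adjusted p = 0.00515). The lowest Socs3 levels were in day 3 replicates 1 and 2, the libraries with the highest Il1b, and their part in the Socs3 difference was not tested beyond the fits without a single library. Over the 14 libraries Socs3 went with the LSEC sum (r = 0.78, rho = 0.78) and against the monocyte and neutrophil sum (r = -0.77, rho = -0.77). Socs3 was most closely matched by Nckipsd (r = 0.975, rho = 0.952), Arhgef15 (r = 0.970, rho = 0.943), a guanine nucleotide exchange factor of endothelial cells, and 6430548M08Rik (r = 0.962, rho = 0.965).

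Between successive days, 0 of the 10 members were called by edgeR and 0 by DESeq2. From day 1 to day 3, edgeR called 2.58% of all genes, 1.58% higher and 0.999% lower. Here 3 members had an unadjusted p under 0.05, which 15.7% of all genes reached. Il1r1 had a log2 fold change of -0.60 ± 0.25 (adjusted p = 0.272), Il6st of -0.76 ± 0.34 (adjusted p = 0.303) and Il6 of 1.71 ± 0.72 (adjusted p = 0.260). All 4 day 3 mice were below both day 1 mice for Il6st, and groups without overlap were found for 21.8% of all genes, 11.4% higher and 10.4% lower. The share of higher genes among all calls was 61.3% with TMM and 71.4% with library size only.

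From day 3 to day 7, edgeR called 1.81% of all genes, 0.421% higher and 1.39% lower. Of the members, 2 had an unadjusted p under 0.05, which 18.7% of all genes reached. Lifr had a log2 fold change of 0.55 ± 0.19 (adjusted p = 0.158), with all 4 day 7 mice above all 4 day 3 mice. Groups without overlap were found for 7.91% of all genes, 3.76% higher and 4.15% lower. Osmr had a log2 fold change of 0.51 ± 0.22 (adjusted p = 0.240), which passed without day 3 replicate 4 (adjusted p = 0.0322). The median over all genes tested was 0.19 from day 1 to day 3 and -0.10 from day 3 to day 7.

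Other genes of IL-1 signalling were read from a list of 25, of which 24 were tested. At day 1, 4 of 24 rose and none was called lower, where 2.41% of all genes were called higher and 1.63% lower. The list's median log2 fold change was 0.31, beside -0.03 over all genes. Il1r2, the decoy receptor that binds IL-1 without signalling, rose by a log2 fold change of 5.50 ± 1.33 (adjusted p = 0.0334), from 9.75, 10.4, 6.27 and 1.37 CPM in healthy LSECs to 458 and 171 CPM. At day 3 Il1r2 was at 134 and 71.5 CPM in replicates 1 and 2 and at 5.10 and 0.849 CPM in replicates 3 and 4, and at day 7 at 1.97 to 8.93 CPM, so that it was high only in libraries with high monocyte and neutrophil markers, though not in all of these. Il18rap, a chain of the IL-18 receptor, rose by 3.84 ± 0.99 (adjusted p = 0.0456), and Myd88, the adaptor of IL-1 and Toll-like receptors, by 0.85 ± 0.20 (adjusted p = 0.0295). From day 1 to day 3 Myd88 fell by 0.83 on the log2 scale (SE 0.20, adjusted p = 0.0437). These day 1 calls did not survive the loss of single mice: of 6 fits that each left out 1 mouse, Il1r2, Il18rap and Myd88 were called in 0 and Nlrp3 in 1, the fit without healthy replicate 4. The adjusted p ranged from 0.0664 to 0.312 for Il1r2, from 0.0540 to 0.602 for Il18rap and from 0.0226 to 0.520 for Nlrp3, and reached 0.614 for Myd88, highest in each case without day 1 replicate 1. The fall of Myd88 from day 1 to day 3 was lost in 4 of 6 such fits, without day 1 replicate 1 or 2 or day 3 replicate 2 or 3 (adjusted p = 0.466, 0.0887, 0.0899 and 0.0502).

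The inflammasome sensor and the other IL-1 ligand moved in opposite directions at days 3 and 7. Nlrp3, which starts the cleavage of IL-1 beta to its active form, was at 2.18, 4.85, 3.74 and 7.28 CPM in healthy LSECs and at 17.85 and 12.5 CPM at day 1. It was at 41.2, 37.4, 17.7 and 22.5 CPM at day 3 and at 8.33, 17.65, 19.2 and 17.95 CPM at day 7. All mice given CCl4 were above all healthy mice, and Nlrp3 was the sole gene of the 24 called higher at day 3, where 4.56% of all genes were, and at day 7, where 2.19% were. Its log2 fold change was 1.75 ± 0.45 at day 1 (adjusted p = 0.0457), 2.72 ± 0.41 at day 3 (adjusted p = 0.00266) and 1.81 ± 0.39 at day 7 (adjusted p = 0.0282). Il1a, which encodes IL-1 alpha, was at 2768, 2320, 1542 and 1333 CPM in healthy LSECs, or 1008 RPKM on average, above the 151.6 RPKM of Il1b. It was at 919 and 950 CPM at day 1, at 1064, 829.2, 1030 and 900.5 CPM at day 3 and at 897, 433, 884.5 and 1037 CPM at day 7. All 10 mice given CCl4 were below all healthy mice. Il1a was the sole gene of the 24 called lower at day 3, where 2.6% of all genes were, and at day 7, where 1.08% were. It fell by 1.06 on the log2 scale at day 3 (SE 0.28, adjusted p = 0.0373) and by 1.29 at day 7 (SE 0.28, adjusted p = 0.0282), and at day 1 its log2 fold change was -1.09 ± 0.36 (adjusted p = 0.114). The median of the list was -0.06 at day 3 and -0.14 at day 7, beside 0.18 and 0.02 over all genes. These calls were sensitive to single mice: leaving out healthy replicate 1, 2 or 3 in turn gave an adjusted p of 0.116, 0.0992 and 0.0511 for Il1a at day 3 and of 0.0930, 0.0844 and 0.0505 at day 7. Without day 3 replicate 2 the day 3 value was 0.0928, and without day 7 replicates 2 and 3 the day 7 values were 0.0685 and 0.0680. The day 3 call of Nlrp3 held in all 8 such fits, while that at day 7 held in 2 of 8 (adjusted p of up to 0.0895).

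**Figure D5:**
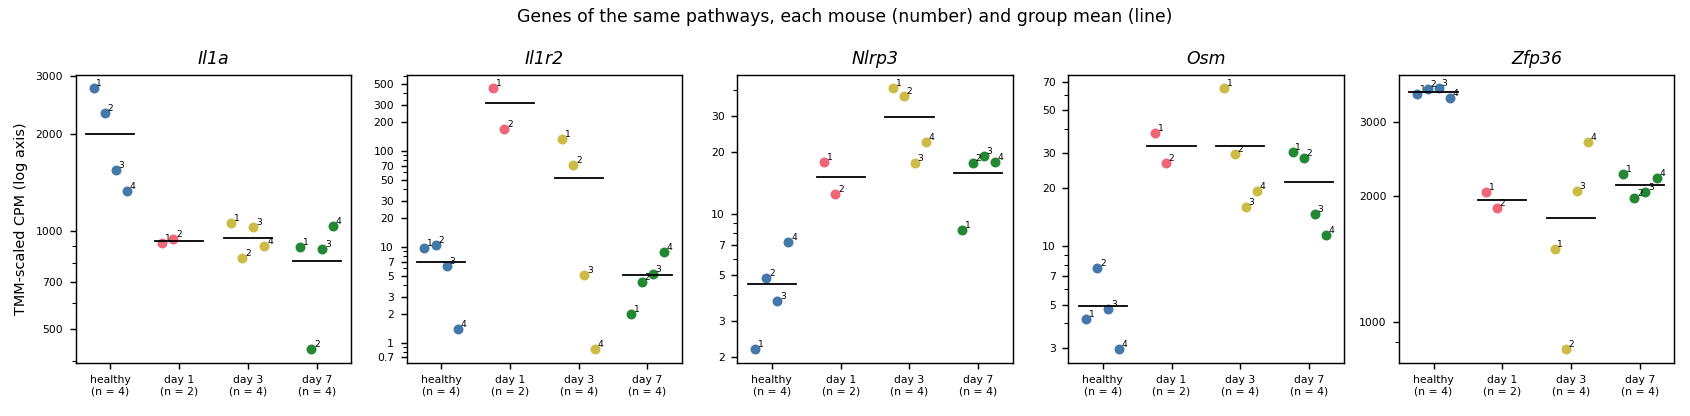
TMM-scaled CPM (log axis) of Il1a, Il1r2, Nlrp3, Osm and Zfp36 in each mouse, with the replicate number beside each point and the group mean as a line. Il1a lies below, and Nlrp3 and Osm lie above, the healthy range in all 10 mice given CCl4, while Il1r2 is at 71.5 CPM or more in both day 1 mice and in day 3 replicates 1 and 2 and below 11 CPM in the others.

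Among 15 further ligands and receptors of the IL-6 family, 1 rose at day 1 and 2 rose at day 3, where 2.41% and 4.56% of all genes were called higher. None was called lower on any day. Osm, which encodes the ligand of Osmr, was the gene called at all 3 days. It was at 4.21, 7.71, 4.74 and 2.94 CPM in healthy LSECs and at 38.4 and 26.8 CPM at day 1. It was at 65.4, 29.7, 15.9 and 19.3 CPM at day 3 and at 30.6, 28.3, 14.7 and 11.4 CPM at day 7, in all mice above all healthy mice. Its log2 fold change was 2.73 ± 0.54 at day 1 (adjusted p = 0.0116), 2.73 ± 0.49 at day 3 (adjusted p = 0.00647) and 2.12 ± 0.48 at day 7 (adjusted p = 0.0317). In day 3 replicates 3 and 4, with monocyte and neutrophil markers near the healthy maximum, Osm was at 15.9 and 19.3 CPM, above the highest healthy level of 7.71 CPM. The day 1 call was lost without day 1 replicate 1 (adjusted p = 0.160), and the day 7 call without healthy replicate 1, 2 or 3 or day 7 replicate 2 (adjusted p = 0.101, 0.0507, 0.0907 and 0.102). Il31ra, which pairs with Osmr in the IL-31 receptor, rose at day 3 by 2.56 ± 0.61 (adjusted p = 0.0231), at no more than 1.53 CPM, a call lost without healthy replicate 2, 3 or 4 or day 3 replicate 3 (adjusted p = 0.0674, 0.0705, 0.0726 and 0.0525). The list's median log2 fold change was 0.55, 0.73 and 0.70 from day 1 to day 7, beside -0.03, 0.18 and 0.02 over all genes.

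Of 16 genes of the JAK-STAT cascade and its feedback, including Jak1, Stat3 and Socs1, edgeR called 0 in each of the 5 comparisons. In order from day 1 against healthy to day 7 against day 3, edgeR called 4.04%, 7.16%, 3.27%, 2.58% and 1.81% of all genes. An unadjusted p under 0.05 was reached by 5, 3, 0, 2 and 4 of the 16. Of all genes, 17.8%, 22.1%, 21.1%, 15.7% and 18.7% reached it. DESeq2 called 0, 2, 0, 1 and 2 of the 16, where it called 2762, 3627, 2619, 2309 and 1671 genes in all. The list's median log2 fold change was between -0.17 and 0.14, beside -0.10 to 0.19 over all genes tested.

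The next list held 20 genes known to respond to STAT3. At day 1, 6 of 20 rose, where 2.41% of all genes were called higher, with a median log2 fold change of 0.88 beside -0.03 over all genes. At day 3, 5 of 20 rose, where 4.56% of all genes were called higher, with a median of 0.73 beside 0.18. None of the 20 was called lower on these days. Lcn2, which encodes the siderophore-binding lipocalin-2, was at 2.57 to 3.50 CPM in healthy LSECs, at 280.3 and 141 CPM at day 1, at 11.2 to 179 CPM at day 3 and at 6.79 to 83.8 CPM at day 7. Its log2 fold change was 6.09 ± 1.00 at day 1 (adjusted p = 0.00415), 4.60 ± 0.89 at day 3 (adjusted p = 0.00896) and 3.57 ± 0.85 at day 7 (adjusted p = 0.0398). Timp1, an inhibitor of metalloproteinases, was at 1.41 to 2.93 CPM in healthy LSECs and at 11.6 to 111 CPM in the mice given CCl4, and was called at all 3 days, with log2 fold changes of 5.01 ± 0.70, 4.24 ± 0.64 and 4.60 ± 0.65 (adjusted p = 0.00135, 0.00266 and 0.00507). Lrg1, an acute-phase glycoprotein, rose at day 1 by 5.12 ± 1.06 (adjusted p = 0.0152), from 12.3, 14.5, 14.2 and 124.6 CPM, the last in the healthy library with high hepatocyte markers, to 1645 and 1235 CPM. Hif1a, the oxygen-regulated transcription factor, rose at day 1 and fell by 1.90 on the log2 scale from day 1 to day 3 (SE 0.17, adjusted p = 0.00026). Il4ra, the IL-4 receptor chain, rose at day 1 by 1.46 ± 0.27 (adjusted p = 0.00779), from a mean of 97.6 CPM to 268.7 CPM. Without day 1 replicate 1 that rise was 1.09. From day 1 to day 3 Il4ra fell by 1.42 (SE 0.27, adjusted p = 0.0157), to a mean of 100.7 CPM. This call was lost without day 1 replicate 1 or 2, with log2 fold changes of -1.14 and -1.76. Hif1a was at 85.8 to 92.8 CPM in healthy LSECs, at 398 and 315 CPM at day 1 and at 85.6 to 104 CPM at day 3. Myc rose at day 3 by 1.52 ± 0.31 (adjusted p = 0.0121), and its 2 highest levels, 180.3 and 237 CPM, were in replicates 3 and 4. The remaining called genes, and the day 1 calls of Hif1a and Il4ra, fall outside the rule for naming and were named after their values were seen. These genes were Cebpb at day 1 and Icam1 and Bcl3 at day 3, all higher. The Cebpb call was lost without healthy replicate 1 or 3 (adjusted p = 0.0724 and 0.0760). With 1 mouse left out, Icam1 was called in 5 of 8 fits (adjusted p of up to 0.0740) and Bcl3 in 4 of 8 (up to 0.0858). At day 7, Timp1 and Lcn2 rose and Pim3, a survival kinase, fell by 0.93 (SE 0.23, adjusted p = 0.0452), where 2.19% of all genes were called higher and 1.08% lower. The list median was 0.18, beside 0.02 over all genes. The Pim3 call was lost in all 8 fits that left out 1 mouse (adjusted p = 0.0552 to 0.151), and that of Lcn2 at day 7 in 5 of 8 (up to 0.132). The day 3 call of Myc was lost without healthy replicate 4 (adjusted p = 0.0582). Without day 1 replicate 1, 3 of the 20 (Hif1a, Timp1 and Lcn2) were called at day 1. The highest Timp1 level, 111 CPM, was in day 7 replicate 2, the library with the highest stellate marker sum of 5626 CPM. Lcn2 is also expressed by neutrophils, and its 280.3 and 141 CPM at day 1 were in libraries with monocyte and neutrophil sums of 8767 and 4473 CPM. The part of these cells was not tested.

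Among 10 genes that control Il6 mRNA or its transcription, 1 was called lower at day 3, where 2.6% of all genes were, and 1 higher at day 7, where 2.19% were. The list's median log2 fold change was 0.04 and 0.17 on these days, beside 0.18 and 0.02 over all genes. Zfp36 encodes tristetraprolin, which destabilises cytokine mRNAs. It was at 3506, 3593, 3627 and 3426 CPM in healthy LSECs and at 2040 and 1878 CPM at day 1. It was at 1499, 862, 2055 and 2696 CPM at day 3 and at 2259, 1978, 2051 and 2204 CPM at day 7, in all mice below all healthy mice. Zfp36 fell by 0.99 on the log2 scale at day 3 (SE 0.27, adjusted p = 0.0394), but this call was lost in 6 of the 8 fits that left out 1 mouse (adjusted p of up to 0.0942). Rc3h1, which encodes the mRNA-decay factor roquin-1, rose by 0.60 ± 0.14 at day 7 (adjusted p = 0.0406), a call lost in all 8 such fits (adjusted p of up to 0.123). At day 1, edgeR and DESeq2 called 0 of the 10, where edgeR called 4.04% of all genes. Of the 10, 1 had an unadjusted p under 0.05, which 17.8% of all genes reached.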

How the data were processed

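LSECs of 14 mice were sorted, and their RNA was amplified with the SMARTseq v4 kit and sequenced. The authors deposited 1 table of whole-number read counts per Ensembl gene, not normalized. Per the labels and the methods, reads were aligned with STAR to GRCm38 and quantified with StringTie. Tool versions, the annotation release, the use of strand and the step from StringTie output to whole numbers are not given in the sources used here.

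Gene names came from GENCODE vM21, in which 54495 of the 54524 gene IDs were found. Counts were analysed with edgeR 4.0.16 in R 4.3.3: filterByExpr (minimum count 10, minimum total 15), TMM scaling, 1 model of 4 group means over all 14 samples, the robust quasi-likelihood F test, and Benjamini-Hochberg adjustment over 26626 genes at 0.05. The study used DESeq2, run here as an alternative (version 1.42.0). SEs were derived from the F statistic and the size of the log2 fold change. Likeness of genes was computed on log2 CPM with a prior count of 2. Promoter sequences are from RefSeq. Alternatives were other scalings, no filter, DESeq2, the 2 groups alone, a replicate block and leaving out each mouse. The code was tested on simulated data.

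Total counts per library were 46401496 to 103912264, so a gene at 0 may have up to 3 counts, a limit that covers counting error only. Mice of a group were separate animals, as far as the labels say, and p-values measure the spread between these samples. The 10 genes and the pathway and marker lists were chosen with earlier results of these data known. Named are all 10 genes, up to 3 called genes per direction, list and comparison, and the 3 protein-coding genes most like each member. A few genes that this rule would name are not reported here.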

Additional observations from a re-analysis of the deposited data

Results flagged for a closer look

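Il1rn in healthy replicate 2 was at 4.734 CPM, apart from the other 3 healthy mice at 1.93 to 2.39 CPM. Its gap to the nearest of them was 0.837 of the range of the group, above Dixon's 95% critical value for 4 samples. It was the only such value among 30 groups of 4 mice examined over the 10 genes, and chance gives about 1 in 20. Without this mouse the log2 fold change of Il1rn at day 1 kept an adjusted p of 0.0366.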

How the results depend on the processing

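Leaving out healthy replicate 4 and day 3 replicate 4 together was chosen after seeing the data. Of the 10 genes called, the number at day 1 was 2, with 1 without a count filter, 5 with only the 2 groups fitted, 0 with a replicate block, 1 without those 2 mice, and 0 to 2 when each mouse was left out in turn. At day 3 it was 1, with 3 by DESeq2, 2 with the block, 3 without the 2 mice and 1 to 3 with each mouse left out. At day 7 it was 1, with 3 for the 2 groups alone and 0 to 1 with each mouse left out. From day 1 to day 3 it was 0, with 1 without the 2 mice and 0 with each mouse left out, and from day 3 to day 7 it was 0, with 1 without the 2 mice and 0 to 1 with each mouse left out.

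Over all genes, the count at day 1 was 1077, with 2762 by DESeq2, 2433 for the 2 groups alone, 608 with the block and 169 to 819 with each mouse left out. At day 3 it was 1906, with 3627, 1101 and 937 to 3366 by DESeq2, for the 2 groups alone and with each mouse left out. At day 7 it was 872, with 2619 by DESeq2, 3242 for the 2 groups alone, 455 with the block, 2607 without the 2 mice and 192 to 1554 with each mouse left out. From day 1 to day 3 it was 688, with 2309 by DESeq2, 135 for the 2 groups alone, 322 with the block, 1371 without the 2 mice and 51 to 960 with each mouse left out. From day 3 to day 7 it was 483, with 302 by library size only, 198 without a filter, 1671 by DESeq2, 0 for the 2 groups alone, 278 with the block, 1745 without the 2 mice and 27 to 1726 with each mouse left out. The cause of these differences was not tested.

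Deviations of same-numbered mice from their groups had correlations of -0.232 to 0.096 over 18 pairs, beside -0.256 to 0.236 over 54 pairs with different numbers. The day 1 mice deviate as mirror images of each other, so their correlations are not independent. The sources used here do not say what the replicate numbers mean. These correlations therefore cannot decide whether same-numbered mice shared a batch or a sort day. With the replicate block, the adjusted p at day 1 was 0.113 for Il1rn and 0.0728 for Il1r1, and Socs3 passed at day 3 (0.0319). Il1b and Socs3 passed at day 3 with DESeq2 (0.0135 and 0.0295), and Il1rn missed at day 1 without a filter (0.0593). With only the 2 groups fitted, Il1b, Il6st and Socs3 also passed at day 1 (0.0435, 0.0272 and 0.0174). In such fits Il1r1 and Socs3 also passed at day 7 (0.0340 and 0.0190).

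No log2 fold change that changed sign was called, and the largest of them in the main fit was -0.72 (Il6ra from day 1 to day 3). Without a filter those that changed sign were Il6st at day 3 (-0.11), Lifr at day 7 (-0.0267) and Osmr from day 1 to day 3 (-0.0338). With the block they were Osmr (-0.0885) and Il1b (0.0764) from day 1 to day 3 and Il6 from day 3 to day 7 (0.0312), the last also with library size only (0.0218). For the 2 groups alone it was Il6st at day 3 (-0.0073). Without the 2 mice they were Il33 at day 1 (0.0243), Il6st at day 3 (-0.06), and Osmr (-0.18) and Il1b (0.22) from day 1 to day 3. With each mouse left out, the ranges that crossed 0 were -0.26 to 0.16 for Il33 at day 1, -0.16 to 0.80 for Il6 and -0.16 to 0.16 for Il6st at day 3, and -0.0387 to 0.21 for Lifr at day 7. From day 1 to day 3 they were -0.96 to 0.22 for Il1b, -1.46 to 0.46 for Il6ra, -0.44 to 0.0937 for Lifr, -0.18 to 0.23 for Osmr and -0.86 to 0.0901 for Socs3, and from day 3 to day 7 -0.37 to 0.62 for Il6 and -0.12 to 0.45 for Il6ra. Day 1 rests on 2 mice, and a fit without either assumes that the lone mouse varies like the other groups.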
